A study of Mus musculus with 12 samples.

Results

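The comparison described here set neural progenitor cells in which the endogenous *Sox1* gene had been switched on (NPC+) against early neural stem cells (NSC), to ask in which programs the activated progenitors still differed from the stem cells and in which they did not. Members were chosen by the titles in the labels, which gave 3 NPC+ and 3 NSC libraries, 6 of the 12 RNA-seq libraries of the series. The other libraries were baseline NPCs, labelled as *Sox1* negative (NPC), and neural rosettes, and NPC levels are given where they help to read a value. All cells were C57BL/6 mouse cells derived from embryonic stem cells that carried GFP in the *Sox1* gene on a single allele. NPC+ were cells labelled as *Sox1* positive glial progenitors, from NPC lines that stably expressed dCas9-VP64, a nuclease-dead Cas9 fused to an activation domain, with guide RNAs to the *Sox1* promoter, and they were sorted for the GFP reporter. NSC were unsorted neuroepithelial cells, so sorting, dCas9-VP64 and guides went with NPC+ and cannot be told apart from the difference in cell type. The methods name the same base medium for both groups and add basic FGF, EGF and laminin for the expansion of NPCs, and the dCas9-VP64 lines were grown from single cells. Each group had 3 biological replicates. The sources used here do not say which culture or day each of these libraries came from, so p-values measure the spread between these samples, which may be partly technical.

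Neural stem cells of the neuroepithelium form a polarised sheet, are held together by apical junctions and give rise to neurons first and to glia later. Sox1, Sox2 and Sox3 form the SoxB1 group of transcription factors, which keep neural cells in the progenitor state, and Sox1 is the most restricted of them to the neuroepithelium. NPCs cultured in EGF and FGF resemble later radial glia and produce mostly astrocytes and other glia. In bulk libraries fewer cells of a kind and less RNA per cell cannot be told apart.

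The guides were designed to the 250 bases before the *Sox1* start site, so that promoter is shown together with the promoter of *Sox2*, a SoxB1 gene that was not targeted. Both sequences are RefSeq windows of 300 bases in GRCm38.p6, from 250 bases before to 50 bases after the start, on the + strand, and capitals mark every CpG, the dinucleotide that DNA methylation acts on in mammals. The *Sox1* window lies at chr8:12395269-12395568 and the *Sox2* window at chr3:34649745-34650044. GENCODE M21, which gave the gene symbols, starts both genes at other positions, so the CpG counts hold for these RefSeq windows only.
Sox1: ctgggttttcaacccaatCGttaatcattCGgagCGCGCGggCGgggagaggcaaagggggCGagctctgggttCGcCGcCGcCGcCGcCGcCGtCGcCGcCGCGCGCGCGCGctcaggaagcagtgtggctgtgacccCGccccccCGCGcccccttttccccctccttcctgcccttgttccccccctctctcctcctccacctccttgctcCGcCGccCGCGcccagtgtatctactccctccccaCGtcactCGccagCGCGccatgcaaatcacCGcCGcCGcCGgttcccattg
Sox2: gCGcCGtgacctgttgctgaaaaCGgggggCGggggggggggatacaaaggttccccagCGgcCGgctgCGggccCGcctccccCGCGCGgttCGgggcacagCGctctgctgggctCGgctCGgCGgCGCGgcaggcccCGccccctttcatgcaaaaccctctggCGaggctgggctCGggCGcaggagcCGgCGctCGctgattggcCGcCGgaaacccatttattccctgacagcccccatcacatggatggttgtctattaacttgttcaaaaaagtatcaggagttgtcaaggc
The *Sox1* window held 37 CpGs and the *Sox2* window 27, against a median of 7 over the windows of 27025 genes, of which 94.2% held at least 1. The search was for the letters CG, which read the same on both strands.

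NPC+ libraries held between 3407066 and 6315574 counts and NSC libraries between 29046205 and 43095688, so that the median NSC library was 5.33 times as deep. A group was treated as at the floor for a gene when all its libraries had 3 counts or fewer, and folds against such a group are lower bounds. NSC replicate 2 stood somewhat apart from the other NSC libraries, with a Pearson correlation of log2 CPM (counts scaled to library size) across genes of 0.984 to each of them, while replicates 1 and 3 reached 0.995. It held the fewest mesenchymal and Y-linked counts. Between libraries of a group the chi-square per degree of freedom, which grows with depth, was 1.36 to 1.72 in NPC+ and 7.38 to 33.8 in NSC. The NPC+ libraries thus differed little beyond counting error, and whether they are technical replicates was not tested. Summed over *Col1a1*, *Col3a1*, *Prrx1*, *Twist1* and *Postn* the mesenchymal markers spanned 828 to 2810.3 CPM in NSC and 40.8 to 50.04 CPM in NPC+, with NSC replicate 2 the lowest NSC library. The 4 pluripotency markers *Pou5f1*, *Nanog*, *Zfp42* and *Esrrb* summed to 18.8 to 47.2 CPM in NSC and 4.503 to 6.08 CPM in NPC+. The 4 neuronal markers *Tubb3*, *Dcx*, *Stmn2* and *Elavl3* summed to 383 to 473 CPM and 14.2 to 14.8 CPM, and the 8 neural stem cell markers to 1263 to 1829 CPM and 792 to 869.7 CPM. All 8 neural stem cell markers were above 3 counts in every library of both groups, and blood markers were at or near 0. *Ptprc* had 2, 1 and 3 counts in NSC.

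The Y-linked genes *Ddx3y*, *Eif2s3y*, *Kdm5d* and *Uty* had 0 counts in every NPC+ library. *Ddx3y*, an RNA helicase gene, was at 10.8, 1.24 and 8.84 CPM in NSC, so NSC replicate 2 was again the lowest. *Xist*, the RNA that silences an X chromosome in female cells, was at 101, 86.05 and 101 CPM in NPC+ and 15.4, 11.1 and 14.6 CPM in NSC. NSC libraries therefore held both *Xist* and Y-linked RNA, and NPC+ libraries held *Xist* and no Y-linked count.

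A gene was called higher or lower in NPC+ when the quasi-likelihood test of edgeR gave a Benjamini-Hochberg adjusted p below 0.1, an unadjusted p below 0.05 and a difference of more than 4-fold. Of 17003 genes tested, 989 (5.82%) were called higher in NPC+ and 2786 (16.4%) lower. At any fold 5104 genes (30%) were higher and 6791 (39.9%) lower, 70% in either direction, and these are said below to be past the test. A gene was taken as close when the 95% interval of its log2 fold change lay wholly within 2-fold, which held for 6230 genes (36.6%). Of these 3380 (19.9% of all genes tested) were also past the test, and 2258 genes (13.3%) were neither past the test nor within 2-fold. The median log2 fold change, always NPC+ minus NSC, was -0.18 over all genes tested. NPC+ were at the floor for 1759 of the 2786 genes called lower, and for 655 of these the lower bound itself exceeded 4-fold. List counts given below with bounds leave out the other floor genes, so 16.4% overstates the share to set beside them. NSC were at the floor for 77 of the 989 genes called higher, and for 76 of them the bound exceeded 4-fold. The 3 NPC+ and 3 NSC values did not overlap for 978 of the higher and 2750 of the lower calls, and for 74.3% of all genes tested.

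**Figure D1:**
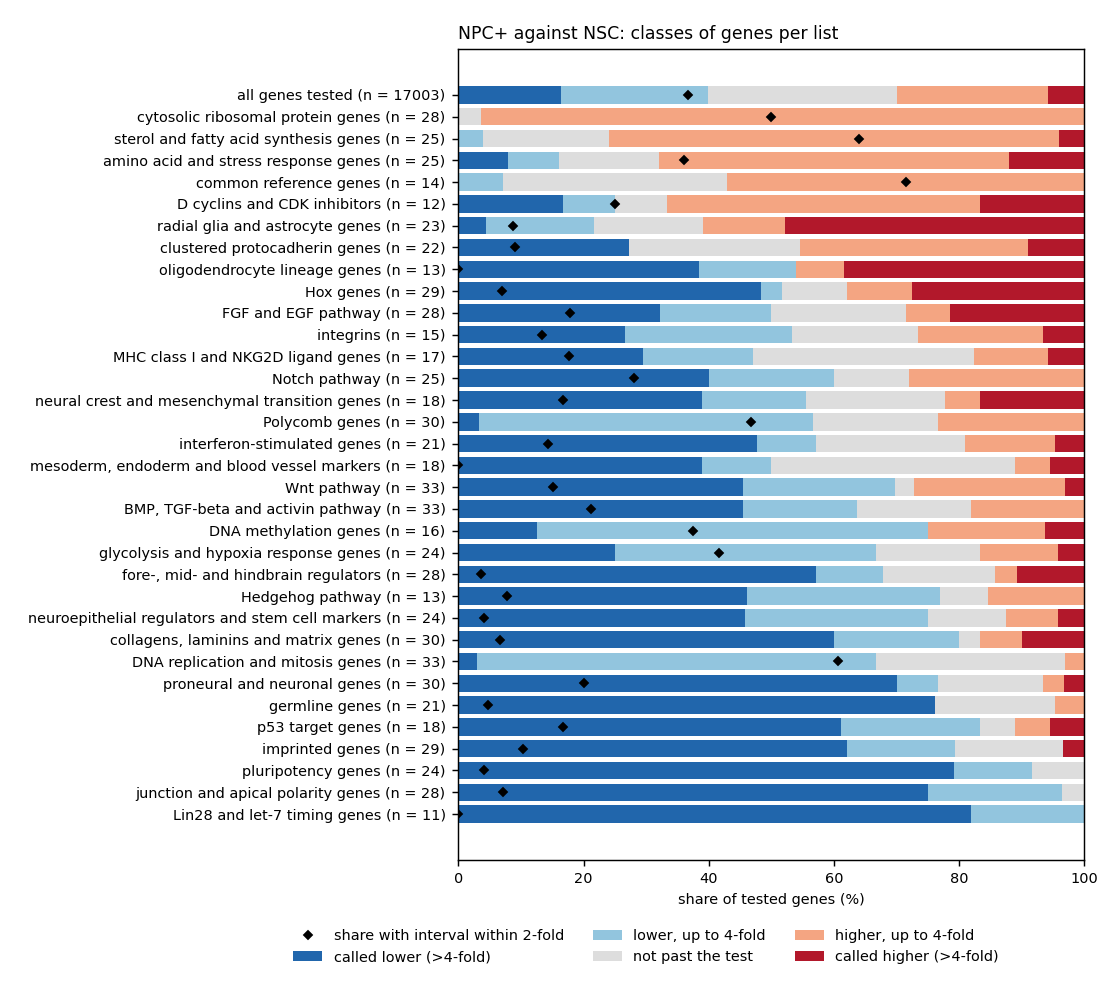
Share of the tested genes of each list (x axis, percent) that were called lower or higher in NPC+, were past the test by up to 4-fold, or were not past it (stacked bars), with black diamonds for the share whose 95% interval lay within 2-fold, a class that overlaps the bars. All 17003 genes tested are the top bar, and in the lists at the bottom, timing, junction and pluripotency genes, both blue classes together (lower past the test at any fold) take the largest shares.

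Among protein-coding genes above the floor in both groups, the 5 largest differences upward were in *Cym*, *Clic5*, *Bcas1*, *Grm5* and *Bcan*. *Cym*, the gene of the milk-clotting protease chymosin, had 542, 910 and 876 counts in NPC+ against 5, 3 and 4 counts in NSC (log2 fold change 10.28, SE 0.22; edgeR adjusted p = 5.9e-13), and its mean was 149 CPM in NPC+ and 0.109 CPM in NPC. *Bcan*, which encodes the brain proteoglycan brevican, was at 813, 779.6 and 789 CPM in NPC+ and 2.44, 2.07 and 2.74 CPM in NSC (log2 fold change 8.35, SE 0.14; edgeR adjusted p = 5.5e-14) and at 617 CPM in NPC. *Bcas1*, a marker of young oligodendrocytes, and *Grm5*, a glutamate receptor of astrocytes and neurons, had log2 fold changes of 8.57 and 8.49 and were at 163 and 50.6 CPM in NPC. *Clic5*, a chloride channel family gene, was at 142, 139 and 128 CPM in NPC+ and 0.3803, 0.242 and 0.0305 CPM in NSC. With NSC at the floor, the most abundant genes of NPC+ were *Olfr1349*, an olfactory receptor gene, at least 282-fold higher, *Slc6a2*, the noradrenaline transporter, at least 162-fold higher, and *Cd93*, *Scrg1* and *Cd163*, between 82.4-fold and 147-fold higher as lower bounds.

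The largest differences downward were in *Cyp26b1*, *Ednrb*, *Crabp1*, *Sfrp2* and *Igdcc3*. *Cyp26b1* and *Crabp1* encode an enzyme that degrades retinoic acid and a protein that binds it. *Crabp1* was at 2.61, 3.14 and 1.67 CPM in NPC+ and 519, 849 and 471 CPM in NSC (log2 fold change -7.95, SE 0.51; edgeR adjusted p = 1.1e-08). *Sfrp2*, a secreted Wnt antagonist, was at 2.895, 1.88 and 4.34 CPM in NPC+ and 694, 691 and 665 CPM in NSC (log2 fold change -7.81, SE 0.45; edgeR adjusted p = 4.1e-09). *Igdcc3*, an immunoglobulin superfamily gene of the early embryo, averaged 1313 CPM in NSC, 5.85 CPM in NPC+ and 6.85 CPM in NPC. *Ednrb*, the endothelin receptor of neural crest and glia, had 1, 8 and 14 counts in NPC+ against 15919, 11913 and 11732 counts in NSC. The means of these 5 genes ran from 0.528 to 5.85 CPM in NPC+ and from 0.571 to 6.85 CPM in NPC. With NPC+ at the floor, *Stmn2*, a neuronal microtubule regulator, was at least 191-fold lower, *Nkx6-2*, a ventral neural tube homeobox gene, at least 158-fold, *Msantd4* at least 144-fold, and *Robo3*, a receptor of commissural axons, at least 100.1-fold.

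Genes of the neural stem cell itself were mostly lower in NPC+. Of 24 neuroepithelial regulators and stem cell markers, 18 were lower and 3 higher past the test, against 39.9% and 30% of all genes tested. By more than 4-fold 11 were called lower and 1 higher, against 16.4% and 5.82% of all genes tested. Only 1 was within 2-fold, and the median log2 fold change was -1.96 (-1.73 with genes at the floor set to their bound). *Sox1* was at 20.3, 20.9 and 21.7 CPM in NPC+ and 48.6, 64.9 and 51.8 CPM in NSC, a log2 fold change of -1.39 (SE 0.36), and it averaged 5.42 CPM in NPC. The groups did not overlap. The NPC+ cells had been sorted on the reporter of this gene, so its level in NPC+ is not independent of the gate, whose part was not tested. *Sox1* lies on chromosome 8, whose median gene was shifted by -0.57 on the log2 scale against all genes between these groups. *Sox2* was at 81.1, 76.8 and 86.6 CPM in NPC+ and 185, 156 and 179 CPM in NSC (log2 fold change -1.09, SE 0.10; edgeR adjusted p = 4.05e-07) and at 284 CPM in NPC, so NPC+ held the lowest level of these 3 groups. *Sox3* was at 26.9, 18.2 and 19.8 CPM in NPC+ and 114, 67.1 and 134 CPM in NSC (log2 fold change -2.304, SE 0.35; edgeR adjusted p = 4.9e-05), with NSC replicate 2 below the other NSC libraries. The *Sox3* difference was more than 4-fold, and neither *Sox2* nor *Sox3* overlapped between the groups.

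*Nes*, the intermediate filament nestin of neural progenitors, was at 236, 224 and 220.3 CPM in NPC+ and 564, 421 and 452 CPM in NSC (log2 fold change -1.08, SE 0.28; edgeR adjusted p = 0.00399), above its mean of 90.2 CPM in NPC. *Vim*, vimentin, was at 815, 817 and 812 CPM in NPC+ and 783, 1081 and 786 CPM in NSC, and its interval of -0.44 to 0.20 on the log2 scale lay within 2-fold. Without NSC replicate 2 the difference of *Vim* changed sign, to 0.07. *Pax6*, a factor of forebrain and eye neuroepithelium, was at 34.7, 33.9 and 32.9 CPM in NPC+ and 115, 98.99 and 127 CPM in NSC (log2 fold change -1.75, SE 0.21; edgeR adjusted p = 5.9e-06). The groups did not overlap for *Nes* or *Pax6*. *Msi1*, an RNA-binding protein of stem cells, was at 6.66, 7.54 and 8.84 CPM in NPC+ and 72.8, 67.2 and 57.3 CPM in NSC (log2 fold change -3.08, SE 0.33; edgeR adjusted p = 1.6e-06). *Prom1*, the apical membrane protein CD133, had 1, 13 and 12 counts in NPC+ against 12786, 8604 and 10246 counts in NSC (log2 fold change -7.51, SE 0.30; edgeR adjusted p = 1.7e-10). *Prom1* averaged 1.44 CPM in NPC+ and 1.68 CPM in NPC. The anterior factors *Six6*, *Fezf2* and *Otx2* were at the floor in NPC+, and *Six6* was at least 8.79-fold lower. *Otx1*, another forebrain homeobox gene, went the other way, at 6.37, 3.93 and 8.17 CPM in NPC+ and 1.66, 0.587 and 1.83 CPM in NSC (log2 fold change 2.16, SE 0.39; edgeR adjusted p = 2.5e-04), as did *Trnp1*, a nuclear regulator of radial glial expansion, at 4.63, 5.496 and 6.17 CPM in NPC+ and 2.44, 3.21 and 3.05 CPM in NSC (log2 fold change 0.92, SE 0.22; edgeR adjusted p = 0.0019). Without NSC replicate 2 the log2 fold change of *Otx1* was 1.83, and 0 members of the list were called higher.

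**Figure D2:**
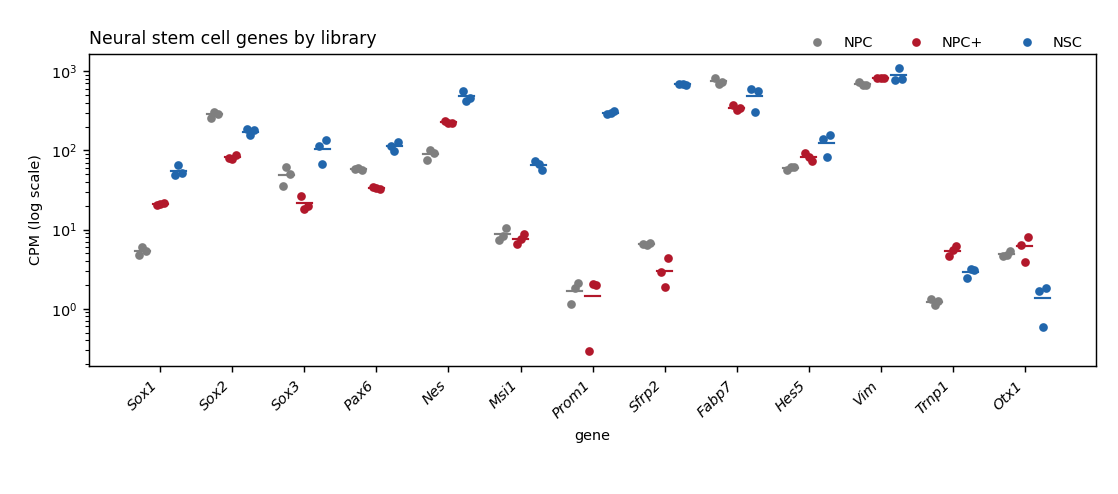
CPM of 13 neural stem cell genes (log scale, y axis) in each of the 3 NPC, 3 NPC+ and 3 NSC libraries (points) with group means (lines). *Vim* lay at a like level in all groups, *Prom1* and *Sfrp2* were far below NSC in both NPC and NPC+, and *Sox1* in NPC+ lay between its NPC and NSC levels.

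Glial genes were mostly higher in NPC+, many of them by more than 4-fold. Of 23 radial glia and astrocyte genes 11 were called higher, against 5.82% of all genes tested, and 1 lower, with a median log2 fold change of 1.64. *Slc1a3*, the glutamate transporter GLAST of radial glia and astrocytes, was at 1192, 1205 and 1147 CPM in NPC+ and 53.9, 49.4 and 54.04 CPM in NSC (log2 fold change 4.49, SE 0.10; edgeR adjusted p = 7.3e-13). *Aldoc*, an aldolase of astrocytes, was at 347, 358 and 337 CPM in NPC+ and 5.01, 3.902 and 4.82 CPM in NSC (log2 fold change 6.24, SE 0.10; edgeR adjusted p = 5.5e-14). *Nfia* and *Nfib*, nuclear factor I genes that mark the onset of gliogenesis, had log2 fold changes of 4.03 and 4.204, and *Nfix* one of 3.49. *Nfib* was at 433, 419.6 and 428 CPM in NPC+ and 28.8, 7.73 and 32.6 CPM in NSC, where NSC replicate 2 was the lowest. *Gfap*, the filament of mature astrocytes, was low in both groups, with 9, 19 and 22 counts in NPC+ against 6, 3 and 4 counts in NSC (log2 fold change 4.61, SE 0.39; edgeR adjusted p = 1.5e-07). *Aqp4*, the astrocyte water channel, was the member called lower, with 0, 4 and 2 counts in NPC+ against 120, 53 and 94 counts in NSC. *Fabp7* and *Hes5*, radial glial genes that neuroepithelial cells also use, were not past the test, with log2 fold changes of -0.49 (95% interval -1.06 to 0.08) and -0.60 (-1.21 to 0.02).

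Oligodendrocyte lineage genes split in opposite directions. Of 13 tested, 5 were called higher and 5 lower, against 5.82% and 16.4% of all genes tested. As a bound, 3 of the 4 lower calls with NPC+ at the floor exceeded 4-fold. The higher members were early factors of the lineage and *Bcas1*. *Olig1* was at 1419, 1399 and 1302 CPM in NPC+ and 4.34, 5.84 and 4.63 CPM in NSC (log2 fold change 8.13, SE 0.13; edgeR adjusted p = 5.5e-14) and *Olig2* at 333, 339 and 319.6 CPM in NPC+ and 24.2, 32.6 and 28.2 CPM in NSC (log2 fold change 3.55, SE 0.30; edgeR adjusted p = 1.9e-07), the basic helix-loop-helix factors that specify the lineage. *Sox8* and *Sox6* had log2 fold changes of 3.16 and 2.98. The lower members included *Mbp*, a myelin protein, at least 37.2-fold lower at 1, 0 and 0 counts in NPC+, and *Nkx2-2*, a ventral neural tube factor, at least 40.6-fold lower. *Sox10*, the factor of committed oligodendrocyte precursors, had 0 counts in every NPC+ library and was not tested. *Pdgfra*, their growth factor receptor, was at 6.37, 4.55 and 3.002 CPM in NPC+ and 12.7, 3.004 and 12.4 CPM in NSC, and the groups overlapped.

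Neuronal genes remained far below NSC. Of 30 proneural and neuronal genes 21 were called lower (19 when genes at the floor are counted by their bound), against 16.4% of all genes tested. In this list 1 was called higher and 6 were within 2-fold, with a median of -3.65 (-3.29 with bounds). *Tubb3*, the neuronal tubulin recognised by Tuj1, was at 7.82, 6.91 and 7.01 CPM in NPC+ and 262, 235 and 263 CPM in NSC (log2 fold change -5.14, SE 0.19; edgeR adjusted p = 8.4e-11) and at 5.37 CPM in NPC. *Dcx*, doublecortin of migrating neurons, was at 4.05, 5.81 and 3.84 CPM in NPC+ and 57.5, 22.8 and 50.7 CPM in NSC (log2 fold change -3.24, SE 0.41; edgeR adjusted p = 8.5e-06) and at 0.713 CPM in NPC. NPC+ thus lay between NPC and NSC for *Dcx* and close to NPC for *Tubb3*. Among the factors that commit cells to neurons, *Neurog2* was at least 65.8-fold lower and *Nhlh2* at least 102-fold lower, with 0, 1 and 1 counts in NPC+ against 3089, 1239 and 2500 counts in NSC. The neurofilament gene *Nefl* was at 0.869, 1.26 and 1.33 CPM in NPC+ and 134, 145 and 168 CPM in NSC. *Neurod1*, another proneural factor, was close, at 23.2, 22.6 and 20.2 CPM in NPC+ and 14.1, 13.7 and 14.96 CPM in NSC, with an interval of 0.33 to 0.92 and past the test at edgeR adjusted p = 0.0012. *Map2*, a microtubule protein of dendrites that progenitors also transcribe, was the member called higher (log2 fold change 2.16, SE 0.27; edgeR adjusted p = 6.96e-06). Without NSC replicate 2 its log2 fold change was 1.90, and 0 members were called higher. *Calb1* and *Th*, markers of mature neuron types, had at most 1 count in any NPC+ library and averaged 0.925 and 1.57 CPM in NSC.

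The genes that mark early developmental time were lower throughout. LIN28 proteins block maturation of the let-7 microRNAs in early progenitors, and let-7 in turn represses many genes of that stage. Of 11 tested genes of this group 11 were lower past the test and 9 called lower, against 39.9% and 16.4% of all genes tested. The median was -3.79. *Lin28a* had 1, 2 and 1 counts in NPC+ against 2353, 3017 and 1324 counts in NSC and was at least 107-fold lower. *Lin28b* was at 0.579, 1.26 and 1.17 CPM in NPC+ and 116, 111 and 103 CPM in NSC (log2 fold change -6.68, SE 0.38; edgeR adjusted p = 4.2e-09). Their partners in RNA binding, *Igf2bp1*, *Igf2bp2* and *Igf2bp3*, had log2 fold changes of -7.49, -3.79 and -1.72, and *Igf2bp1* was at 2.32, 3.45 and 2.67 CPM in NPC+ and 477, 650.2 and 436 CPM in NSC. *Mycn*, a growth-promoting transcription factor of embryonic progenitors, was at 6.08, 9.58 and 7.67 CPM in NPC+ and 249, 369 and 254 CPM in NSC (log2 fold change -5.18, SE 0.19; edgeR adjusted p = 5.4e-11). *Hmga2*, a chromatin protein that falls with age in neural stem cells, was at 44.9, 56.7 and 57.7 CPM in NPC+ and 125, 249.7 and 121 CPM in NSC (log2 fold change -1.63, SE 0.33; edgeR adjusted p = 5.6e-04), the smallest difference of the group. No member was within 2-fold.

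**Figure D3:**
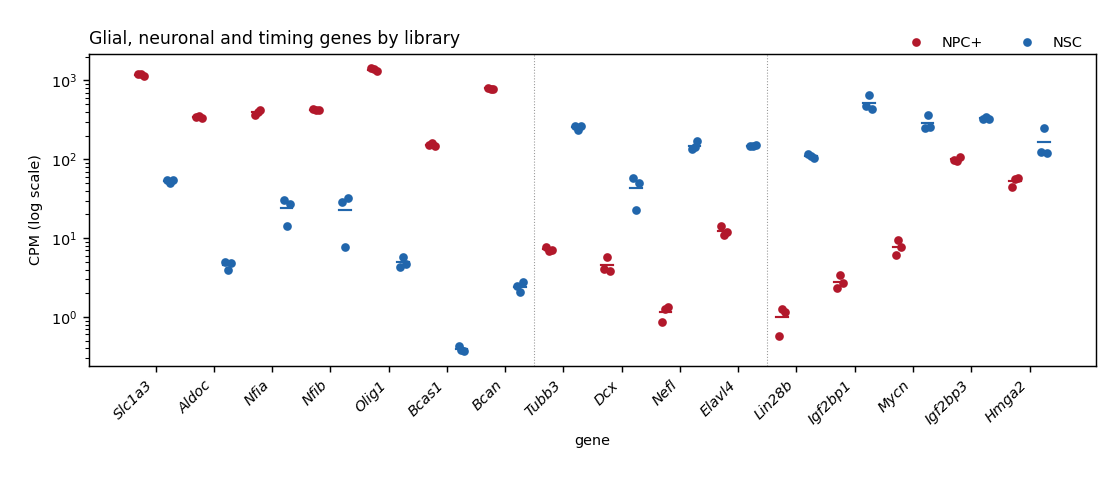
CPM (log scale, y axis) of glial genes (left block), neuronal genes (middle) and early timing genes (right) in each of the 3 NPC+ and 3 NSC libraries (points) with group means (lines). In NPC+ the glial genes shown lay above and the neuronal and timing genes below their NSC values, with no overlap.

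Pluripotency genes were also lower. Of 24 tested 19 were called lower and 0 higher, against 16.4% and 5.82% of all genes tested. The median was -3.86 (-3.23 with bounds). *Sall4*, a zinc finger factor of stem cells, was at 0.869, 1.26 and 0.667 CPM in NPC+ and 124, 141 and 116 CPM in NSC (log2 fold change -7.06, SE 0.24; edgeR adjusted p = 3.2e-11). *Pou5f1*, the Oct4 gene, had 1, 1 and 3 counts in NPC+ against 535, 122 and 290 counts in NSC and was at least 13.6-fold lower. *Nanog* was at 1.16, 1.099 and 0.5004 CPM in NPC+ and 10.9, 4.42 and 9.17 CPM in NSC (log2 fold change -3.203, SE 0.53; edgeR adjusted p = 1.1e-04). The NSC levels of *Pou5f1* and *Nanog* were low and lowest in replicate 2, the library with the fewest mesenchymal and Y-linked counts, and with that library as the only NSC library 16 members were called lower. *Klf2* was within 2-fold, and *Esrrb* and *Tbx3* were not past the test, with log2 fold changes of -0.21 and 0.66.

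Genes of position along the body axis differed in both directions. Hox genes are used in order along their clusters, low numbers in the hindbrain and high numbers in the tail. Of 29 tested Hox genes 8 were called higher and 14 lower (10 counting bounds), against 5.82% and 16.4% of all genes tested. The 3 tested genes of the last group were all higher: *Hoxd13* was at 20.8, 18.5 and 15.2 CPM in NPC+ and 0.0895, 0.0345 and 0.06096 CPM in NSC (log2 fold change 7.98, SE 0.31; edgeR adjusted p = 1.5e-10), *Hoxc13* at 5.21, 6.59 and 7.51 CPM in NPC+ and 0.179, 0.345 and 0.0914 CPM in NSC (log2 fold change 4.98, SE 0.43; edgeR adjusted p = 2.3e-07), and *Hoxa13*, with NSC at the floor, at least 14.8-fold higher. *Hoxd13* averaged 14.7 CPM in NPC. *Hoxa5*, *Hoxd8*, *Hoxd9*, *Hoxb7* and *Hoxb8* were called higher as well, with log2 fold changes from 2.12 to 3.41. Hindbrain members were called lower, with -2.64 for *Hoxa2*, -2.88 for *Hoxb2* and -2.96 for *Hoxb3*, and *Hoxb1*, the gene of a single hindbrain segment, was at least 29.7-fold lower. *Hoxa7* had 0 counts in every NPC+ library and was at least 5.905-fold lower. Members of a cluster could go opposite ways, with *Hoxa5* higher and *Hoxa7* lower. *Hoxb4* was at 8.396, 9.58 and 12.5 CPM in NPC+ and 11.2, 11.3 and 10.6 CPM in NSC, and it and *Hoxa3* were within 2-fold.

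Of 28 fore-, mid- and hindbrain regulators 16 were called lower (11 counting bounds) and 3 higher, against 16.4% and 5.82% of all genes tested. The lower members included factors of the ventral and intermediate neural tube, *Nkx6-1* at 4.92, 3.77 and 3.67 CPM in NPC+ and 147, 180.3 and 150.3 CPM in NSC (log2 fold change -5.31, SE 0.34; edgeR adjusted p = 1.3e-08) and *Dbx1* with 2, 5 and 1 counts in NPC+ against 4716, 2750 and 3624 counts in NSC, and the dorsal factor *Pax3*, at least 65.7-fold lower. *Irx3* and *Irx5*, posterior neural tube factors, had log2 fold changes of -4.62 and -3.31. The midbrain gene pair split: *En1* was at 13.9, 18.2 and 15.3 CPM in NPC+ and 1.72, 3.28 and 2.56 CPM in NSC (log2 fold change 2.67, SE 0.26; edgeR adjusted p = 7.7e-07) and *En2* at 4.34, 5.34 and 4.17 CPM in NPC+ and 55.2, 24.2 and 84.5 CPM in NSC (log2 fold change -3.55, SE 0.54; edgeR adjusted p = 5.2e-05). *Emx2*, of the dorsal forebrain, and *Nkx2-4*, of the ventral forebrain, were the other members called higher, at 11.9, 10.5 and 11.01 CPM in NPC+ and 3.09, 1.59 and 1.798 CPM in NSC and at 3.76, 3.61 and 3.34 CPM in NPC+ and 0.0895, 0.276 and 0.06096 CPM in NSC. With NSC replicate 2 as the only NSC library 5 members were called higher.

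Apical junction genes were lower almost throughout. Of 28 junction and apical polarity genes 27 were lower and 0 higher past the test, against 39.9% and 30% of all genes tested. Called lower were 21 (18 counting bounds), against 16.4% of all genes tested. *Crb2*, an apical determinant of epithelia, was at 0.2895, 0.471 and 1.001 CPM in NPC+ and 111, 121 and 112 CPM in NSC (log2 fold change -7.49, SE 0.51; edgeR adjusted p = 1.9e-08). *Cdh1*, E-cadherin, had 1, 2 and 8 counts in NPC+ against 2684, 1470 and 2003 counts in NSC (log2 fold change -6.35, SE 0.39; edgeR adjusted p = 8.4e-09), and *Epcam*, an epithelial adhesion molecule, was at least 26.8-fold lower. *Cdh2*, the N-cadherin of neuroepithelium, was at 144, 154 and 146 CPM in NPC+ and 501, 627 and 528 CPM in NSC (log2 fold change -1.899, SE 0.25; edgeR adjusted p = 1.4e-05), a smaller gap. *Ocln*, occludin of tight junctions, was at the floor in NPC+ with 62, 40 and 44 counts in NSC, and *Tjp1*, the scaffold ZO-1, was at 86.9, 90.9 and 85.7 CPM in NPC+ and 118, 91.1 and 103 CPM in NSC with an interval of -0.48 to -0.01. *Prkci*, the atypical protein kinase C of the apical complex, was within 2-fold as well. With NSC replicate 2 as the only NSC library 21 members were called lower.

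Of 30 collagens, laminins and other matrix genes 18 were called lower and 3 higher, against 16.4% and 5.82% of all genes tested. *Col3a1*, a fibrillar collagen of mesenchyme, was at 13.03, 16.8 and 21.5 CPM in NPC+ and 1517, 381 and 1479 CPM in NSC (log2 fold change -6.01, SE 0.59; edgeR adjusted p = 7.03e-07) and *Col1a1* at 7.24, 7.54 and 9.01 CPM in NPC+ and 1084, 381 and 1079.9 CPM in NSC (log2 fold change -6.73, SE 0.71; edgeR adjusted p = 1.6e-06). NSC replicate 2 was far below the other NSC libraries for both, yet above every NPC+ library. With replicate 2 as the only NSC library the log2 fold changes were -4.46 and -5.59, and 15 members were called lower. The part that the mesenchymal markers given above have in these differences was not tested. *Col2a1*, a cartilage and notochord collagen that neuroepithelium also makes, was at 2.32, 3.14 and 3.17 CPM in NPC+ and 299.7, 366 and 324 CPM in NSC, and *Col18a1*, of basement membranes, at 3.76, 2.83 and 4.34 CPM in NPC+ and 558, 599 and 537 CPM in NSC. The members called higher were *Bcan* and *Ncan*, proteoglycans of the brain's own matrix, and the laminin gene *Lama5* (log2 fold change 2.55, SE 0.18; edgeR adjusted p = 2.98e-08). Of 15 integrins 4 were called lower and 1 higher, against 16.4% and 5.82% of all genes tested. *Itgb1*, the common beta chain, was at 783, 832 and 719 CPM in NPC+ and 676, 982 and 704 CPM in NSC with an interval of -0.35 to 0.31.

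Neural crest and mesenchymal transition genes were mixed, with 3 called higher, 7 lower and 3 within 2-fold among 18. Over all genes tested these shares were 5.82%, 16.4% and 36.6%. *Zeb1*, a repressor of epithelial genes, was at 258, 244 and 263 CPM in NPC+ and 51.97, 45.8 and 49.8 CPM in NSC (log2 fold change 2.37, SE 0.12; edgeR adjusted p = 1.1e-09), while *Tfap2b*, of neural crest, was at least 28.5-fold lower. *Twist1* was within 2-fold, with 18.8, 17.6 and 16.7 CPM in NPC+ and 20.2, 31.1 and 23.5 CPM in NSC. Of 18 markers of mesoderm, endoderm and vessels 7 were called lower, against 16.4% of all genes tested. When the floor was counted 2 of these exceeded 4-fold. Another 7 markers were neither past the test nor within 2-fold, against 13.3% of all genes tested. *Foxa2*, of floor plate and endoderm, was at 4.05, 6.28 and 6.004 CPM in NPC+ and 27.5, 47.1 and 28.2 CPM in NSC, and *Gata4*, a heart and endoderm factor, was the member called higher, at 23.7, 29.99 and 27.4 CPM in NPC+ and 4.03, 2.93 and 5.97 CPM in NSC (log2 fold change 2.65, SE 0.27; edgeR adjusted p = 1.01e-06).

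Notch pathway genes, which keep progenitors from differentiating, were lower more often than close. Ligands on a cell activate receptors on its neighbour, whose cut fragment acts with RBPJ on Hes and Hey genes. Of 25 tested pathway genes 10 were called lower and 0 higher, against 16.4% and 5.82% of all genes tested. Within 2-fold were 7, below the share of 36.6% over all genes tested, and the median was -1.101. Among ligands, *Dll1* was at 50.7, 48.05 and 46.2 CPM in NPC+ and 197, 170.1 and 215 CPM in NSC (log2 fold change -2.01, SE 0.16; edgeR adjusted p = 9.3e-08) and *Dll3* had a log2 fold change of -3.72, *Jag1* was within 2-fold at 138, 185 and 149.9 CPM in NPC+ and 135, 153 and 134 CPM in NSC, and *Dll4* was higher, at 9.84, 11.3 and 12.5 CPM in NPC+ and 4.61, 6.35 and 4.602 CPM in NSC (log2 fold change 1.12, SE 0.28; edgeR adjusted p = 0.0026), from 1.21 CPM in NPC. Among receptors, *Notch1* was at 183, 202 and 195 CPM in NPC+ and 169.8, 65.5 and 119 CPM in NSC (log2 fold change 0.71, SE 0.26; edgeR adjusted p = 0.025), where NSC replicate 1 lay close to NPC+, and *Notch3* was at 44.01, 47.7 and 49.4 CPM in NPC+ and 211, 114 and 145 CPM in NSC (log2 fold change -1.73, SE 0.22; edgeR adjusted p = 8.1e-06). Without NSC replicate 2 the log2 fold change of *Notch1* was 0.44 (adjusted p = 0.0505). Among effectors, *Hes1* was at 113, 112 and 112 CPM in NPC+ and 93.6, 97.5 and 97.2 CPM in NSC with an interval of 0.06 to 0.40, and *Hes6* and *Hey1* were within 2-fold too. *Hes3*, a Hes gene of neuroepithelium, was at least 18.1-fold lower, *Heyl* at least 6.45-fold lower, and the feedback gene *Nrarp* had a log2 fold change of -4.46. *Neurl1a*, a ubiquitin ligase acting on ligands, was past the test at 0.71.

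**Figure D4:**
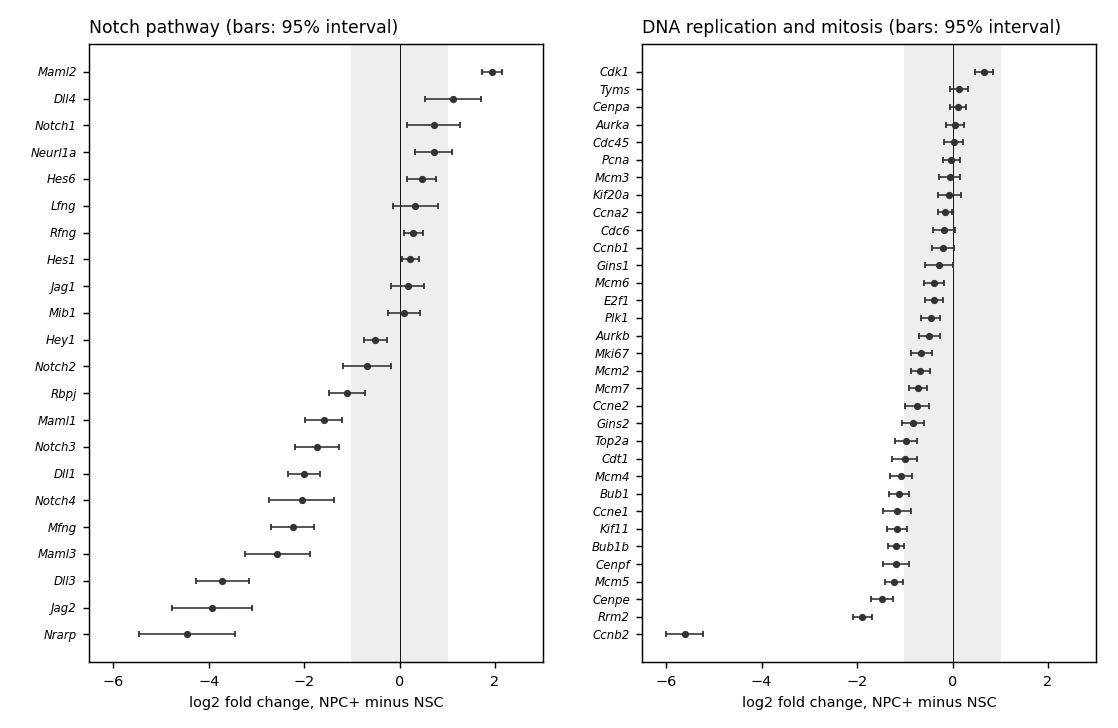
Log2 fold change of NPC+ minus NSC (x axis) with its 95% interval for each tested member of the Notch pathway above the floor (left) and of the DNA replication and mitosis genes (right), and the range within 2-fold shaded in grey. Most mitosis genes lay inside or at the edge of the shaded range and *Ccnb2* far below it, while the Notch genes spread from *Nrarp* at -4.46 to *Maml2* at 1.94.

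The FGF and EGF pathway held the most higher calls among the signalling lists, 6 of 28, beside 9 lower. Over all genes tested 5.82% were called higher and 16.4% lower. *Egfr*, the EGF receptor, was at 155, 151 and 147 CPM in NPC+ and 21.2, 15.4 and 17.9 CPM in NSC (log2 fold change 3.05, SE 0.25; edgeR adjusted p = 1.1e-07). The transcriptional outputs of FGF and EGF signalling *Etv5* and *Spry4* were at 968, 955 and 893 CPM in NPC+ and 176, 148 and 168 CPM in NSC and at 153, 165 and 173 CPM in NPC+ and 17.5, 14.3 and 18.2 CPM in NSC, with log2 fold changes of 2.51 and 3.29. *Dusp6*, another output, was within 2-fold at 313, 292 and 262 CPM in NPC+ and 237, 286 and 224 CPM in NSC. The ligands *Fgf1* (5.64) and *Areg* (4.04) were called higher, and *Fgf15*, the ligand of the early neural tube, was at least 49.6-fold lower. Of the FGF receptors *Fgfr1* was within 2-fold, with a log2 fold change of -0.42, and *Fgfr2* and *Fgfr3* were called lower at -2.75 and -2.19. The expansion medium of NPCs contained EGF and FGF, and the part of the medium was not tested.

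Wnt pathway genes were called lower in 15 (13 counting bounds) and higher in 1 of 33 cases. Over all genes tested 16.4% were called lower and 5.82% higher, the shares to set beside each list of this paragraph. *Sfrp1*, a secreted antagonist, was at 41.7, 40.8 and 45.9 CPM in NPC+ and 1073, 1406 and 1132 CPM in NSC (log2 fold change -4.81, SE 0.24; edgeR adjusted p = 1.01e-09), and the antagonist *Wif1* went the other way, at 76.7, 79.1 and 76.2 CPM in NPC+ and 1.57, 0.932 and 0.914 CPM in NSC (log2 fold change 6.04, SE 0.17; edgeR adjusted p = 8.2e-12). *Axin2* and *Lef1*, targets of the pathway, were higher past the test, at 1.497 and 1.38, and the target *Sp5* had 0 counts in NPC+ and was at least 7.68-fold lower. BMP, TGF-beta and activin genes were called lower in 15 of 33 cases (12 counting bounds), and none of them was called higher. *Fst*, follistatin, an inhibitor of activin, was at 0.2895, 1.26 and 0.834 CPM in NPC+ and 64.5, 111 and 63.2 CPM in NSC (log2 fold change -6.49, SE 0.47; edgeR adjusted p = 3.9e-08), and *Bmp6* had 0 counts in NPC+ and was at least 18.6-fold lower. The BMP targets *Id1* and *Id2* were within 2-fold, *Id2* at 268, 248 and 256 CPM in NPC+ and 289, 209.6 and 282 CPM in NSC, while *Id4* was called lower at -2.78. With NSC replicate 2 as the only NSC library 2 of these genes were within 2-fold instead of 7. Of 13 Hedgehog pathway genes 6 were called lower, among them the ligand *Shh* (-5.22), the receptor and target *Ptch1* (-2.06) and the target and effector *Gli1*, at 0.2895, 0.314 and 0.667 CPM in NPC+ and 20.98, 28.7 and 21.6 CPM in NSC (log2 fold change -5.73, SE 0.31; edgeR adjusted p = 2.4e-09).

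Genes of proliferation were mostly close. Of 33 DNA replication and mitosis genes 20 were within 2-fold, against 36.6% of all genes tested. When each library had to reach 10 counts for a gene, 20 members were within 2-fold, and so were 6032 of the 10608 genes kept. The share of 36.6% therefore overstates how far this list stood out. In the list 1 gene was called lower and 0 higher, although 22 were lower past the test and the median was -0.66. *Pcna*, the replication clamp, was at 215, 221 and 207 CPM in NPC+ and 220.1, 221 and 213 CPM in NSC with an interval of -0.21 to 0.16. *Mki67*, the proliferation antigen, was at 168, 162 and 176 CPM in NPC+ and 285, 223 and 289.6 CPM in NSC (log2 fold change -0.66, SE 0.10; edgeR adjusted p = 5.9e-05), and *Ccna2*, cyclin A2, had the narrowest interval of the list, -0.31 to -0.00. *Rrm2*, which makes DNA precursors, had a log2 fold change of -1.895. *Ccnb2*, cyclin B2, was the member called lower, at 3.18, 2.98 and 2.34 CPM in NPC+ and 132, 144 and 134 CPM in NSC (log2 fold change -5.62, SE 0.15; edgeR adjusted p = 4.4e-12), while *Ccnb1*, its close relative, was at 385, 401 and 374 CPM in NPC+ and 442, 456 and 438 CPM in NSC. *Ccnb2* averaged 24.1 CPM in NPC. How the counting treated reads that match several genes is not given in the sources used here, and its part in the *Ccnb2* value was not tested.

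Of 12 D cyclins and CDK inhibitors 2 were called higher, 2 lower, and 3 were within 2-fold, against 5.82%, 16.4% and 36.6% of all genes tested. Past the test at any fold 8 were higher and 3 lower. *Cdkn2a*, the Ink4a and Arf locus, was at 36.2, 35.3 and 44.2 CPM in NPC+ and 1.97, 3.52 and 2.22 CPM in NSC (log2 fold change 3.92, SE 0.22; edgeR adjusted p = 3.1e-09) and *Cdkn2c* at 44.3, 47.3 and 44.03 CPM in NPC+ and 5.66, 3.69 and 5.61 CPM in NSC, both called higher. *Cdkn1c*, an imprinted inhibitor of cells that leave the cycle, was at 0.579, 1.26 and 0.667 CPM in NPC+ and 126, 104 and 129 CPM in NSC (log2 fold change -7.08, SE 0.24; edgeR adjusted p = 3.4e-11). *Ccnd1* and *Ccnd2*, the D cyclins, were higher at 1.62 and 0.79, and their partner *Cdk4* was within 2-fold, at 1091, 1113 and 1121 CPM in NPC+ and 946, 1035 and 916 CPM in NSC.

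Genes activated by p53 were mostly lower. Of 18 tested 11 were called lower, 1 higher and 3 were within 2-fold, against 16.4%, 5.82% and 36.6% of all genes tested. The median was -2.39. *Ccng1*, cyclin G1, was at 35.9, 38.9 and 41.03 CPM in NPC+ and 829, 1464 and 828 CPM in NSC (log2 fold change -4.75, SE 0.26; edgeR adjusted p = 3.1e-09). *Cdkn1a*, the p21 inhibitor, was at 67.2, 69.2 and 64.05 CPM in NPC+ and 229.9, 415 and 205 CPM in NSC (log2 fold change -2.08, SE 0.25; edgeR adjusted p = 6.5e-06), and *Pmaip1*, the cell death gene Noxa, had 1, 5 and 7 counts in NPC+ against 4683, 3743 and 3059 counts in NSC. *Perp* was at least 61.4-fold lower. *Trp53* itself was within 2-fold, at 144, 123 and 139 CPM in NPC+ and 181, 215 and 169 CPM in NSC, and *Plk2* was the member called higher (log2 fold change 2.11, SE 0.22; edgeR adjusted p = 1.3e-06).

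Polycomb genes held few differences above 4-fold, and DNA methylation genes were near the background in this respect, which was 22.2% of all genes tested in either direction. With at least 10 counts in every library 479 of 10608 genes were called higher and 350 lower, and 6032 were within 2-fold. Under that filter 0 Polycomb genes were called higher and 1 lower, and 14 were within 2-fold. For DNA methylation genes these numbers were 1, 1 and 6. Of 16 DNA methylation genes 6 were within 2-fold, 2 were called lower and 1 higher, and the share within 2-fold was near the 36.6% of all genes tested. Past the test at any fold 12 were lower (75%, against 39.9% of all genes tested) and 4 higher (25%, against 30%). *Dnmt1*, the maintenance methyltransferase, was at 325, 362 and 305 CPM in NPC+ and 492, 429.9 and 498 CPM in NSC with an interval of -0.72 to -0.31. The de novo enzyme *Dnmt3b* was at 9.55, 9.26 and 9.17 CPM in NPC+ and 114, 65.5 and 119 CPM in NSC (log2 fold change -3.42, SE 0.36; edgeR adjusted p = 1.6e-06), and its cofactor *Dnmt3l* was at least 9.601-fold lower. *Dnmt3a* had a log2 fold change of -1.27 and *Tet1*, which oxidises methylcytosine, one of -1.48, both past the test. *Mbd1*, a reader of methylated DNA, was the member called higher (log2 fold change 2.06, SE 0.14; edgeR adjusted p = 1.6e-08). Of 30 Polycomb genes 14 were within 2-fold and 1, *Cbx2*, was called lower, at 45.5, 43.7 and 45.5 CPM in NPC+ and 192, 178 and 186 CPM in NSC (log2 fold change -2.05, SE 0.14; edgeR adjusted p = 1.5e-08). Past the test at any fold 17 Polycomb genes were lower (56.7%, against 39.9% of all genes tested) and 7 higher. The core of the complex that methylates histone H3 at a repressive lysine was close, with log2 fold changes of -0.71 for *Ezh2*, -0.43 for *Suz12* and -0.50 for *Eed*, all within 2-fold. *Jarid2*, an accessory subunit, had a log2 fold change of -1.87. With NSC replicate 2 as the only NSC library 11 Polycomb genes were within 2-fold.

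Imprinted genes were mostly lower. They are expressed from a single parental allele. Of 29 tested 18 were called lower (16 counting bounds) and 1 higher, against 16.4% and 5.82% of all genes tested. Their median was -3.68 (-2.89 with bounds). *Nnat*, neuronatin, was at 319, 331 and 327 CPM in NPC+ and 1686, 1452 and 1608 CPM in NSC (log2 fold change -2.28, SE 0.19; edgeR adjusted p = 1.3e-07), against 8.62 CPM in NPC. *Igf2*, a fetal growth factor, was at 4.92, 5.02 and 7.01 CPM in NPC+ and 66.7, 80.8 and 77.3 CPM in NSC (log2 fold change -3.71, SE 0.27; edgeR adjusted p = 4.3e-08), against 0.607 CPM in NPC. Both were thus between NPC and NSC in NPC+. *H19*, the noncoding neighbour of *Igf2*, was at least 73.01-fold lower. The noncoding genes *Meg3* and *Rian* and the protein-coding *Dlk1*, which share a cluster on chromosome 12, were lower together, *Meg3* at 1.16, 1.26 and 1.67 CPM in NPC+ and 125, 105 and 143 CPM in NSC, *Dlk1* at 2.03, 0.942 and 1.17 CPM in NPC+ and 86.4, 18.1 and 82.4 CPM in NSC, and *Rian* with 0 counts in NPC+ and at least 24.9-fold lower. *Peg10*, *Sgce* and *Gnas* were within 2-fold. *Airn*, a noncoding RNA that overlaps *Igf2r*, was the member called higher, and reads of overlapping genes cannot be told apart without strand, which is not given in the sources used here. Of 21 germline genes, which DNA methylation silences in body cells, 16 were called lower and none higher. Over all genes tested 16.4% were called lower and 5.82% higher. NPC+ were at the floor for 14 of the 16 lower germline genes, and none of the bounds reached 4-fold. *Zfp42* and *Tex19.1* were the lower germline genes above the floor, at 1.74, 1.26 and 0.667 CPM in NPC+ and 20.6, 8.53 and 21.7 CPM in NSC and at 0.2895, 0.628 and 0.5004 CPM in NPC+ and 7.41, 2.31 and 7.07 CPM in NSC. For the germline genes at the floor a difference beyond 4-fold was not detectable at the depth of NPC+.

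Among clustered protocadherins, cell surface labels chosen per neuron, the called genes split by cluster. Of 22 tested 2 were called higher, *Pcdhb5* at 46.9, 41.3 and 36.9 CPM in NPC+ and 3.96, 2.07 and 3.47 CPM in NSC and *Pcdhb16* at 43.4, 31.7 and 33.5 CPM in NPC+ and 7.41, 5.697 and 7.28 CPM in NSC, both of the beta cluster, and all 6 called lower were of the gamma cluster, of which 3 exceeded 4-fold counting bounds. Over all genes tested 5.82% were called higher and 16.4% lower. With at least 10 counts in every library 2 members were called higher and 0 lower, and thinned to the smallest library 2 and 2. Gamma members share their last exons, so their counts are uncertain.

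Interferon genes were lower more often than higher, largely at low counts, and class I genes went both ways. Over all genes tested 16.4% were called lower and 5.82% higher. Of 17 MHC class I and NKG2D ligand genes 5 were called lower (2 counting bounds) and 1, *Raet1d*, higher, at 14.8, 13.3 and 15.5 CPM in NPC+ and 3.18, 3.21 and 2.68 CPM in NSC (log2 fold change 2.26, SE 0.21; edgeR adjusted p = 1.2e-06) and 0 CPM in NPC. *Raet1e*, which overlaps it in the annotation, had 0 counts in NPC+ and was at least 9.602-fold lower, so the values of this pair are uncertain. *H2-K1*, a class I heavy chain, was at 11.001, 11.6 and 11.7 CPM in NPC+ and 42.9, 40.2 and 45.2 CPM in NSC (log2 fold change -1.899, SE 0.11; edgeR adjusted p = 5.8e-09), and *B2m*, the light chain, at 91.5, 108 and 105 CPM in NPC+ and 63.2, 58.2 and 61.8 CPM in NSC (log2 fold change 0.73, SE 0.18; edgeR adjusted p = 0.0023). Of 21 interferon-stimulated genes 10 were called lower (5 counting bounds), *Bst2* by at least 17.6-fold, and 1 higher, *Rsad2*, with a log2 fold change of 2.02. Past the test at any fold 12 were lower and 4 higher, against 39.9% and 30% of all genes tested. NPC+ were at the floor for 9 of the 10 called lower, and with at least 10 counts in every library 0 were called lower. With NSC replicate 2 as the only NSC library 5 were called lower. *Ifit3* had 0, 0 and 0 counts in NPC+ against 178, 13 and 104 counts in NSC, most of them in NSC replicates 1 and 3.

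Sterol synthesis and amino acid genes were shifted upward and glycolysis genes downward, mostly by less than 4-fold, and many sterol genes were within 2-fold. Of 25 sterol and fatty acid synthesis genes 16 were within 2-fold, against 36.6% of all genes tested, and 19 were higher past the test, with a median of 0.58. With at least 10 counts in every library 16 of these genes, and 6032 of 10608 genes in all, were within 2-fold. *Fdps*, farnesyl diphosphate synthase, was the member called higher, at 81.4, 82.8 and 82.7 CPM in NPC+ and 17.4, 13.9 and 17.98 CPM in NSC (log2 fold change 2.32, SE 0.13; edgeR adjusted p = 3.3e-09). Of 25 amino acid and stress response genes 17 were higher past the test, against 30% of all genes tested, 3 of them by more than 4-fold, and 9 were within 2-fold. *Phgdh*, the first enzyme of serine synthesis, was at 620.4, 586 and 589.9 CPM in NPC+ and 228, 236 and 213 CPM in NSC (log2 fold change 1.41, SE 0.08; edgeR adjusted p = 3.4e-09), *Atf4*, the regulator of the response, had a log2 fold change of 1.15, and *Aldh1l2*, a mitochondrial folate enzyme, one of 3.12. Of 24 glycolysis and hypoxia response genes 16 were lower past the test, against 39.9% of all genes tested. In this list 6 were called lower and 10 within 2-fold, against 16.4% and 36.6% of all genes tested. The enzymes *Eno1* and *Pkm* were within 2-fold, *Eno1* at 1348, 1348 and 1347 CPM in NPC+ and 1437, 1867 and 1381 CPM in NSC, whereas the glucose transporters *Slc2a1* and *Slc2a3* and the lactate exporter *Slc16a3* were called lower, *Slc2a1* at 45.5, 43.3 and 48.5 CPM in NPC+ and 305, 385 and 323 CPM in NSC (log2 fold change -2.88, SE 0.10; edgeR adjusted p = 5.4e-11).

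Cytosolic ribosomal protein genes were higher past the test in 27 of 28 cases, by a median of 0.74, and none was called. *Rpl8* had the largest difference, 1.44, and *Rpl4* the smallest, 0.12. The number within 2-fold was 14, and it was 23 with NSC replicate 2 as the only NSC library. Of 14 genes commonly used as references 10 were within 2-fold and none was called, and *Polr2a* was at 122, 130.5 and 136 CPM in NPC+ and 161, 122 and 106 CPM in NSC.

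Several genes that the study names for NPC+ were placed against NSC. The study chose them on these NPC+ libraries, so they are not independent evidence of a rise over NPC. *Trnp1*, *Dll4* and *Areg* were above NSC in NPC+, as given above. *Nuak2*, a kinase of the AMPK family, was at 0.358, 0.1395 and 0.626 CPM in NPC, at 10.7, 12.2 and 10.01 CPM in NPC+ and 75.7, 83.9 and 78.9 CPM in NSC (log2 fold change -2.85, SE 0.24; edgeR adjusted p = 1.7e-07). *Fgf13*, an intracellular FGF homolog of neurons, was at 1.07, 0.977 and 0.209 CPM in NPC, at 6.37, 6.44 and 5.84 CPM in NPC+ and 21.2, 22.1 and 20.6 CPM in NSC (log2 fold change -1.78, SE 0.21; edgeR adjusted p = 5.2e-06). With *Nes*, *Nnat*, *Igf2* and *Dcx* these genes lay between NPC and NSC, and NPC+ did not overlap NSC for any of them. *Actc1*, the cardiac actin used as another guide target by the study and not targeted in NPC+, had 0, 1 and 4 counts in NPC+ against 627, 1809 and 442 counts in NSC, and NSC replicate 2 was the highest.

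Differences also followed chromosomes. Over genes above 3 log2 CPM, and relative to the median of all of them (-0.0963), the median log2 fold change was 0.77 on chromosome 15, 0.39 on chromosome 13 and 0.35 on chromosome 1, and -0.57 on chromosome 8, -0.45 on chromosome 12, -0.37 on chromosome 16 and -0.35 on chromosome 14. For NPC+ against NPC the same medians were 0.12 on chromosome 15, -0.03 on chromosome 8 and -0.38 on chromosome 16. *Sox1* and *Tubb3* lie on chromosome 8, the *Hoxc* cluster on chromosome 15 and *Meg3* on chromosome 12. These are descriptions with no test, and copy number was not measured.

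**Figure D5:**
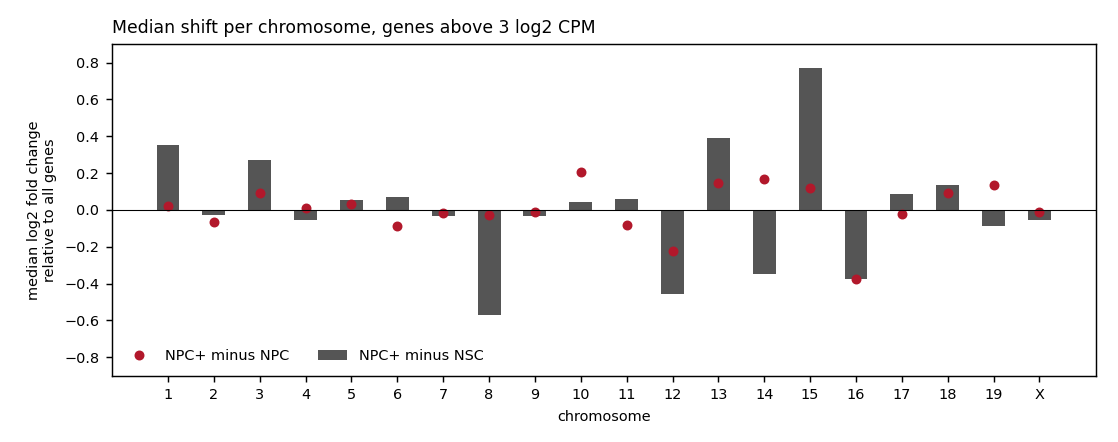
Median log2 fold change per chromosome relative to all genes above 3 log2 CPM (y axis) for NPC+ minus NSC (grey bars) and, with the same NPC+ libraries, NPC+ minus NPC (red points). Chromosome 15 had the highest bar, 0.77, and chromosome 8 the lowest, -0.57.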

How the data were processed

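RNA had been isolated with the PicoPure kit, amplified with SMART-Seq v4 and made into libraries with MicroPlex. The authors deposited whole-number counts per gene for 12 libraries. The submitters' processing notes name STAR 2.6, RSEM 1.1.14 and mm10 without their roles, and whether the counts are reads or rounded estimates is not given in the sources used here. Symbols came from GENCODE M21, and 563 of 45706 genes, with 0.124% of counts, had none. All 12 libraries in 4 groups were fitted in edgeR 4.0.16 (R 4.3.3, TMM scaling, filterByExpr, quasi-likelihood test, prior count 0.125) with Benjamini-Hochberg adjustment over 17003 genes. CPM was taken on TMM-scaled library totals. Printed SEs were derived from each log2 fold change and its F statistic. The 95% intervals are Wald intervals from the weights and moderated dispersion of the fit, so they need not match the printed SE exactly. Floors allow 3 counts per library, and neither floors nor bounds are confidence limits or cover the spread between replicates. The fit was checked on simulated data.

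The members and the 34 gene lists were chosen with earlier results of these data known. Named genes were the 5 largest differences in each direction above the floor and the 5 most abundant at the floor of the other group, the extreme called and the narrowest close member of each list, and genes around those the study names or stains. Other list members were chosen after their values were seen. Some genes that this rule names are not reported here. *Sox1* was part of the fit across all genes, but NPC+ had been sorted on its reporter, so its fold change is given as a description without a p-value. Alternatives were DESeq2 1.42.0, other scaling, filters, prior count, depth, thresholds, left-out replicates and, added after seeing the data, NSC replicate 2 as the only NSC library.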

Additional observations from a re-analysis of the deposited data

How the results depend on the processing

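The 3 counts of genes over 4-fold higher (989), over 4-fold lower (2786) and within 2-fold (6230) depended most on low counts. With at least 10 counts in every library 479 genes were called higher and 350 lower, because that filter removes genes at the floor, and 57.8% of calls were higher instead of 26.2%. With every library thinned to the smallest total 1808 were lower. These filters, and no filter, moved the median of all genes by 0.19, 0.12 and -0.145 on the log2 scale, in that order, and by -0.0138, 0.0899 and -0.0819 over the genes shared with the reported fit. At over 2-fold 2635 were higher and 4272 lower, and within 1.5-fold 2865 were close. Leaving out a replicate gave 979 to 1122 higher, 2711 to 2918 lower and 5697 to 6009 within 2-fold. With NSC replicate 2 as the only NSC library, whose spread is assumed to be that of the other groups, the counts were 1259, 2419 and 5391, and with DESeq2 997, 2742 and 6111. The labels number replicates alike in each group. The correlations of same-numbered deviations were -0.0153, 0.0102 and 0.0619, and those of differently numbered ones lay between -0.0484 and 0.034. Such values cannot tell whether samples shared a culture or day, so pairing remains unknown. A replicate block in the fit gave 1000 higher, 2791 lower and 6214 within 2-fold. Over 124 named genes and 1911 refits 1862 kept direction and side of the threshold, 36 lost the call, 3 gained it and 10 changed sign, all of them close genes. The changed log2 values were 0.0718 for *Vim* without NSC replicate 2 (lowest of its leave-one-out values -0.188), 0.0661 for *Hoxa3* thinned, 0.192 thinned and 0.0709 with NSC replicate 2 alone for *Disp1*, -0.0667 without a filter, -0.000226 with at least 10 counts, -0.0383 without NPC+ replicate 3 and -0.0515 without NSC replicate 2 for *Tapbp* (highest 0.0751), and 0.0143 thinned and 0.0135 without NPC+ replicate 1 for *Gpi1* (lowest -0.0534). Apart from the filter's own construction, the cause was not tested.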
